A study of Mus musculus with 6 samples.

Results

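Peg10, Sgce and Asb4 are imprinted genes of a cluster on mouse chromosome 6, described here through the DNA methylation of blood stem and progenitor cells. They are described with 6 genes of the same stretch, Calcr, Casd1, Ppp1r9a, Pon1, Pon3 and Pon2. The members are the CpG positions that the deposited data hold within the RefSeq extents of these 9 genes and 2 kb on each side, in build mm10. This gave 386 positions seen in at least 1 library, of 1352372 in all, and 182 covered in every library, of 552338 in all. Of the 386 positions, 352 lay inside a gene extent and 34 in the flanks only. The genes were chosen by name after differences between the genotypes had been seen in these data, Asb4 lower in KI in each cell type and Peg10 and Sgce higher in MPP. The genotype values are therefore given as a description, without p-values, and calls between the genotypes are only counted.

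The knock-in genotype, IDH1 KI or KI for short, was IDH1+/lsl VavCre+. Control littermates were IDH1+/+ VavCre+, so both genotypes carried the Cre recombinase under the blood cell promoter Vav. All mice were male C57BL/6 animals of 7 to 10 months. From each genotype, long-term haematopoietic stem cells (LT-HSC: Lin- Sca+ Kit+ CD150+ CD48-), short-term haematopoietic stem cells (ST-HSC: Lin- Sca+ Kit+ CD150+ CD48+) and multipotent progenitors (MPP: Lin- Sca+ Kit+ CD150-) were sorted from bone marrow. The labels give 6 mice per group and 10 ng of DNA per library, and each group was 1 library, so there are no replicates. The assay was enhanced reduced representation bisulfite sequencing, eRRBS for short, which sequences CpG-rich restriction fragments after unmethylated cytosines have been converted. The methylation level of a position is the percent of its reads that still show C.

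As background, an imprinted gene is transcribed mainly from the copy inherited from 1 parent, and clusters of such genes often hold a control region that is methylated on a single parental copy. In this cluster Peg10 and Sgce share a promoter region that is methylated on the maternal copy, and both are expressed from the paternal copy. Peg10 derives from a retrotransposon and is needed for the placenta. Sgce encodes epsilon-sarcoglycan, a membrane protein of the dystrophin-associated complex. Asb4, expressed from the maternal copy, encodes an ankyrin repeat protein with a SOCS box that recruits substrates to a ubiquitin ligase. A region methylated on a single parental copy is read at an intermediate level, because both copies contribute reads.

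Read counts summed over all positions were 38284759 to 53884467 per library, where a read covering several positions counts at each. The median was 27 to 45 reads per position. The mean level over all shared positions lay between 21.5 and 23.3% in the 6 libraries. No lane number in the deposited names occurs with KI and Control alike, so effects of lane and of genotype cannot be told apart. The files hold methylation only, so the labelled cell types could not be checked against expression. Of 19 marker genes of stem cells and of other blood or stromal cells, 9 had enough shared positions. Their median levels were 4.11, 4.04 and 4.47% in KI LT-HSC, ST-HSC and MPP, against 3.73, 3.68 and 2.84% in the same cell types of Control mice. Of the 9, 1 was at least 10 points higher in KI in LT-HSC and in ST-HSC, the stromal marker Pdgfrb, and 0 were in MPP. Pdgfrb stood at 85.9, 95 and 96.7% in KI, against 69.9, 84.6 and 91.0% in Control. The marker Cdh5 stood at 48.5, 54.4 and 53.4% in KI, against 54.4, 52.7 and 58.3% in Control. It was lower in KI in LT-HSC and MPP. The part of either marker in the results was not tested.

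Promoter sequences of RefSeq (GRCm38.p6, the assembly of mm10), each of 300 bases with 250 before and 50 after the start of transcription, were found for 7 of the 9 genes in 11 windows. A few are shown for what they say about which letters were measured. The first is the upstream Asb4 window, on the forward strand at chr6:5383136-5383435, with its CG pairs in capitals. It held 6 CG pairs and no position covered in all 6 libraries. The first measured position of the gene lay 287 bases beyond the window's end.

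Asb4: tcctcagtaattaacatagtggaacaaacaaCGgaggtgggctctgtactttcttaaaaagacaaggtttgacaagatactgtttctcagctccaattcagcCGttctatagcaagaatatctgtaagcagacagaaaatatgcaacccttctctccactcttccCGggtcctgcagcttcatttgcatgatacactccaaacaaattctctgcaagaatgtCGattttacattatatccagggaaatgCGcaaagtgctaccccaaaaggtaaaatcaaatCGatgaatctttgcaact

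The other windows belong to Calcr (reverse strand, chr6:3763574-3763873) and Ppp1r9a (forward strand, chr6:4903061-4903360). In these the capitals mark the bases at which a methylation level was measured in all 6 libraries: C for the printed strand and G for a cytosine of the opposite strand. Calcr had 29 CG pairs in its window and 8 measured positions, and Ppp1r9a had 48 CG pairs and 31 measured positions. The median over 32851 promoter windows was 7 CG pairs.

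Calcr: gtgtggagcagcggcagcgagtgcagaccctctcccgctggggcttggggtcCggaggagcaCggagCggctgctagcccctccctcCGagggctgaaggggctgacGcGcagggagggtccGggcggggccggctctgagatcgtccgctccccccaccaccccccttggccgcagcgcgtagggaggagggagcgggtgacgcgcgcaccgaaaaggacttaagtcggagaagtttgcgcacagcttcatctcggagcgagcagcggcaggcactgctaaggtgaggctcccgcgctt

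Ppp1r9a: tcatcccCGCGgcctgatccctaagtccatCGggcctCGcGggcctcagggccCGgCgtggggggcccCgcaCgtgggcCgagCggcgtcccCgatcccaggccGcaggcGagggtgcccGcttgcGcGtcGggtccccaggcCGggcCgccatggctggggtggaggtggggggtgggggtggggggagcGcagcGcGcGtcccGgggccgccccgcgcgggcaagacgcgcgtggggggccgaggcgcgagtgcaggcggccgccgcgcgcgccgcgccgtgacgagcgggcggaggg

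The measured letters fell in short runs, and a CpG cluster is defined here as at least 5 shared positions with neighbours at most 250 bases apart. There were 23846 such clusters in the genome and 8 among the members, which held 164 of the 182 shared positions. Calcr and Casd1 had 2 clusters each, Ppp1r9a, Pon2 and Asb4 had 1 each, and 1 cluster was common to Peg10 and Sgce. Pon1 and Pon3 had none.

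**Figure D1:**
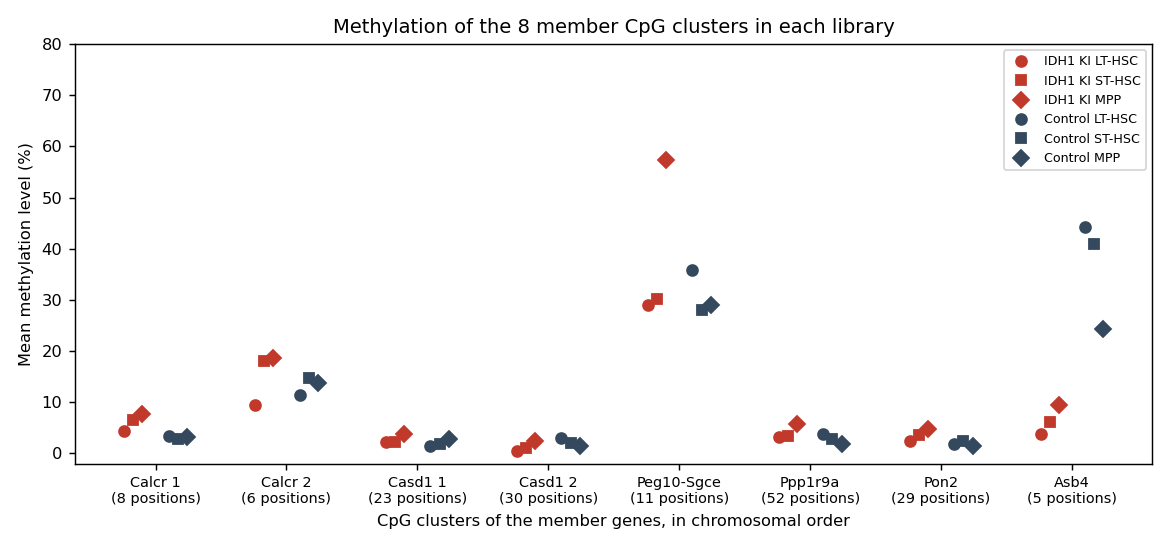
Mean methylation level (%) of the 8 CpG clusters of the member genes, in chromosomal order, with 1 point per library (red for KI, dark blue for Control; circles LT-HSC, squares ST-HSC, diamonds MPP; no replicates, no error bars). The Peg10-Sgce cluster stands at 57.4% in KI MPP and between 28.0 and 35.9% in the other libraries, and the Asb4 cluster at 3.76 to 9.38% in KI and 24.3 to 44.2% in Control.

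The Peg10-Sgce cluster, chr6:4747355-4747490, held 11 positions, 5 on the forward and 6 on the reverse strand. It lay 49 to 184 bases inside the Peg10 extent (chr6:4747306-4760517), and 101 bases separated that extent from the end of Sgce (chr6:4674350-4747204). Its mean level was 29.0% in KI LT-HSC, 30.1% in KI ST-HSC and 57.4% in KI MPP, against 35.9% in Control LT-HSC, 28.0% in Control ST-HSC and 28.9% in Control MPP. All 6 libraries were in the intermediate range of 20 to 80%, which held for 769 of the 23846 clusters (3.22%). The KI MPP library was the highest, and the other 5 lay within 7.92 points of each other.

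In MPP the KI level exceeded the Control level by 28.5 points. Counting error on the summed reads, as a 95% interval, was ± 7.74 points, and this does not include the difference between mice or between libraries. It was computed from levels pooled over reads, not from the mean over positions. It also counts a read once for each position it spans, so it is too narrow even for counting error. In LT-HSC the KI minus Control difference was -6.93 ± 5.61 points, and in ST-HSC it was 2.14 ± 5.47 points, with the same kind of interval. Over the 3 cell types the mean difference was 7.90 ± 18.4 points (SD, n = 3 cell types), so the spread between cell types was larger than the mean. In MPP, 169 clusters of the genome had a larger positive difference. That rank is among all clusters, few of which were in the intermediate range, and no rank was taken among intermediate clusters alone.

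Read counts summed over the 11 positions were 677, 531 and 422 for the KI libraries from LT-HSC to MPP. The Control sums were 448, 533 and 238. A read covering several of these positions counts at each, so the sums are not numbers of distinct reads. The Control MPP library had 21.6 reads per position here, and 7.28% of all clusters had fewer in that library. It is the library on which the MPP difference rests, together with KI MPP. No CpG of this cluster was read on both strands, so the strands are separate stretches, 49 to 92 and 148 to 184 bases after the Peg10 start.

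On the forward strand the mean levels were 28.6, 26.8 and 54.2% in KI LT-HSC, ST-HSC and MPP, against 32.5, 31.4 and 39.2% in the matching Control libraries. On the reverse strand they were 29.2, 32.8 and 60.0% in KI, against 38.7, 25.1 and 20.4% in Control, in the same order. The KI MPP library was the highest on both strands. The difference in MPP was 15.1 points on the forward strand, where each Control position had 24 reads, and 39.7 points on the reverse strand, where each had 19 or 20. Control MPP was therefore the second highest library on the forward strand and the lowest on the reverse strand.

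Of the positions of this cluster, the 3 with the largest mean difference over the cell types were all on the reverse strand. Position 4747461 stood at 31.6, 35 and 59.3% in KI LT-HSC, ST-HSC and MPP, against 29.7, 25.9 and 21.1% in the same cell types of Control mice. Position 4747478 stood at 26.6, 31.8 and 56.7% in KI, against 26.8, 20.6 and 20% in Control. Position 4747476 stood at 28.1, 27.9 and 56.7% in KI, against 26.8, 21.2 and 20% in Control. At each of the 3, KI and Control LT-HSC differed by less than 2 points. Position 4747490, the last of the cluster and singled out after its values were seen, stood at 35.4, 47.7 and 75.9% in KI, against 61.0, 41.2 and 20% in Control. It was the highest of the cluster in KI MPP and lower in KI than in Control in LT-HSC, so no order of the genotypes held there across cell types.

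**Figure D2:**
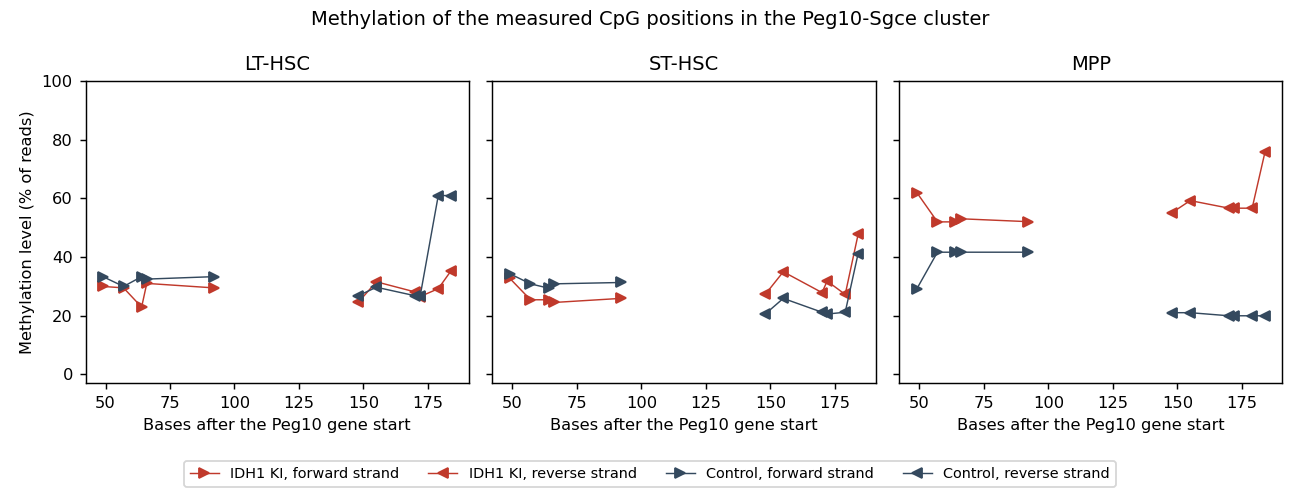
Methylation level (% of reads) of the 11 positions of the Peg10-Sgce cluster against the distance in bases from the Peg10 start, 1 panel per cell type (red KI, dark blue Control; triangles point right for the forward and left for the reverse strand; 1 library each, no error bars). KI lies above Control at all positions in MPP, while in LT-HSC both lie between 23.0 and 33.3% except at the last 2 positions, where Control reaches 61.0%.

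Away from the promoter region, Peg10 and Sgce were methylated at nearly every position read. Inside the Sgce extent 18 positions gave 42 values over the libraries, with a median of 100% and a lowest of 60%, and 38 of the 42 were at least 90%. In the Peg10 extent beyond the cluster 19 positions gave 87 values with a median of 100%, and 74 were at least 90%. Position 4756163 on the reverse strand, singled out after its values were seen, was intermediate in every library. It stood at 41.4, 30.8 and 50.7% in KI LT-HSC, ST-HSC and MPP, against 47.9, 58.3 and 50.4% in the matching Control libraries. These positions were less evenly covered, and 15 of the 30 Peg10 positions were missing from at least 1 library.

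The Asb4 cluster had the pattern opposite in sign to that of Peg10-Sgce in MPP. It held 5 positions at chr6:5383722-5383825, 336 to 439 bases inside the Asb4 extent (chr6:5383386-5433022), 2 on the forward and 3 on the reverse strand. Its mean level was 3.76% in KI LT-HSC, 6.05% in KI ST-HSC and 9.38% in KI MPP, against 44.2% in Control LT-HSC, 40.9% in Control ST-HSC and 24.3% in Control MPP. The 3 KI libraries all lay below the 3 Control libraries. This separation, with KI below Control, was found at 550 of 23846 clusters (2.31%).

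The KI minus Control difference was -40.4 ± 5.45 points in LT-HSC and -34.9 ± 6.99 points in ST-HSC. In MPP it was -14.9 ± 7.82 points. The error is a 95% interval of counting, computed from levels pooled over reads and not from the means over positions. Weighted by reads, the MPP difference was -24.9 points, which lies outside -14.9 ± 7.82. LT-HSC and ST-HSC, at -39.5 and -34.1 points when weighted, stayed inside their intervals. Unweighted, the mean over the cell types was -30.1 ± 13.4 points (SD, n = 3 cell types). Of the 23846 clusters, 12 (0.0503%) had KI at least 10 points under Control in each cell type, Asb4 among them, and 3 had a lower mean difference. In single cell types, a lower difference was found at 7 clusters for LT-HSC, 3 for ST-HSC and 178 for MPP. The Asb4 difference was used in choosing the members, so these ranks describe the choice.

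Read counts summed over the 5 positions were 409, 183 and 339 for the KI libraries from LT-HSC to MPP. The Control sums were 371, 297 and 166. Counted over reads rather than positions, the levels were 3.67, 6.01 and 7.67% in KI LT-HSC, ST-HSC and MPP, against 43.1, 40.1 and 32.5% in the same cell types of Control mice. The Wilson 95% intervals on these reads were 2.23 to 5.96, 3.39 to 10.4 and 5.29 to 11% in KI, against 38.2 to 48.2, 34.7 to 45.7 and 25.9 to 40.0% in Control. The intervals of the 2 genotypes did not overlap in any cell type. They cover counting error only, and are too narrow even for that, because reads that span several positions enter several times. Since the Asb4 difference was used in choosing the members, the gap between the intervals describes the choice and is no test of genotype. With the same kind of error, the MPP difference was -27.2 ± 12.8 points on the forward strand alone and -6.72 ± 9.99 points on the reverse strand alone.

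Of the 5 positions, the 3 with the largest mean difference were 5383722 and 5383725 on the forward strand and 5383805 on the reverse strand. Position 5383722 stood at 0, 5.13 and 16% in KI LT-HSC, ST-HSC and MPP, against 69.4, 69.6 and 53.8% in the matching Control libraries. Position 5383725, 3 bases further, stood at 4.44, 5.13 and 22% in KI, against 25, 58.9 and 38.5% in Control. Position 5383805 stood at 9.09, 0 and 0% in KI, against 44.4, 21.3 and 14.3% in Control. The 0% values rest on 89 reads in KI LT-HSC at 5383722 and on 35 and 80 reads in KI ST-HSC and MPP at 5383805. A count of 0 there allows levels of up to 3.37, 8.57 and 3.75% (3 reads). KI was lower at each of these positions in each cell type. The exception among the 5 was position 5383795 in MPP, at 6.41% in KI and 4.76% in Control, where Control MPP had 21 reads.

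The forward and reverse positions of the Asb4 cluster are different CpGs, 336 to 339 and 409 to 439 bases after the gene start. Effects of strand and of place therefore cannot be told apart between them. They stood apart in Control ST-HSC and in MPP of both genotypes, where the forward positions were the higher. The forward positions averaged 2.22, 5.13 and 19% in KI LT-HSC, ST-HSC and MPP, against 47.2, 64.3 and 46.2% in the same cell types of Control mice. The reverse positions averaged 4.78, 6.67 and 2.96% in KI, against 42.1, 25.4 and 9.68% in Control. The MPP difference was -27.2 points on the forward strand and -6.72 points on the reverse strand, where Control MPP had 20 or 21 reads per position.

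A further 5 positions of Asb4 were missing from at least 1 library, and KI LT-HSC had none of them. Position 5383824 stood at 2.44 and 8.33% in KI ST-HSC and MPP, against 22.2, 15.6 and 19.4% in the 3 Control libraries from LT-HSC to MPP. It is the forward strand of the CpG whose reverse strand is cluster position 5383825. That reverse strand stood at 20 and 2.47% in the same KI libraries, against 37, 29.0 and 10% in Control. At this CpG the forward strand was lower in KI ST-HSC, Control LT-HSC and Control ST-HSC, and higher in MPP of both genotypes. Position 5383832 stood at 9.76 and 18.3% in KI ST-HSC and MPP, against 63.9, 21.9 and 0% in the 3 Control libraries from LT-HSC to MPP, so Control MPP was the lowest there. Position 5384009 stood at 19.6 and 17.6% in KI ST-HSC and MPP, against 0 and 38.5% in Control ST-HSC and MPP on 15 and 13 reads. Positions 5384100 and 5390589 were each read in 1 library, at 50% in Control ST-HSC and 0% in Control LT-HSC. The 0% values allow up to 8.11% at 5383832, 20% at 5384009 and 14.3% at 5390589. KI was thus above Control in MPP at 5383832 and in ST-HSC at 5384009.

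**Figure D3:**
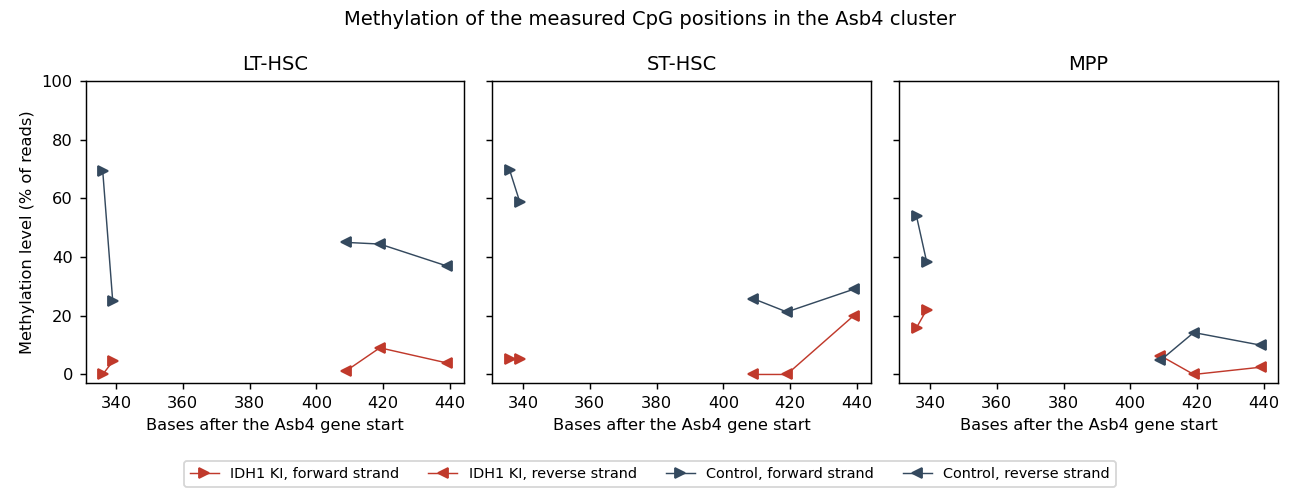
Methylation level (% of reads) of the 5 positions of the Asb4 cluster against the distance in bases from the Asb4 start, 1 panel per cell type (red KI, dark blue Control; triangles point right for the forward and left for the reverse strand; 1 library each, no error bars). KI lies at 22% or below throughout; Control is higher at every position except 5383795 in MPP, and in Control MPP the reverse strand lies between 4.76 and 14.3%.

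**Figure D4:**
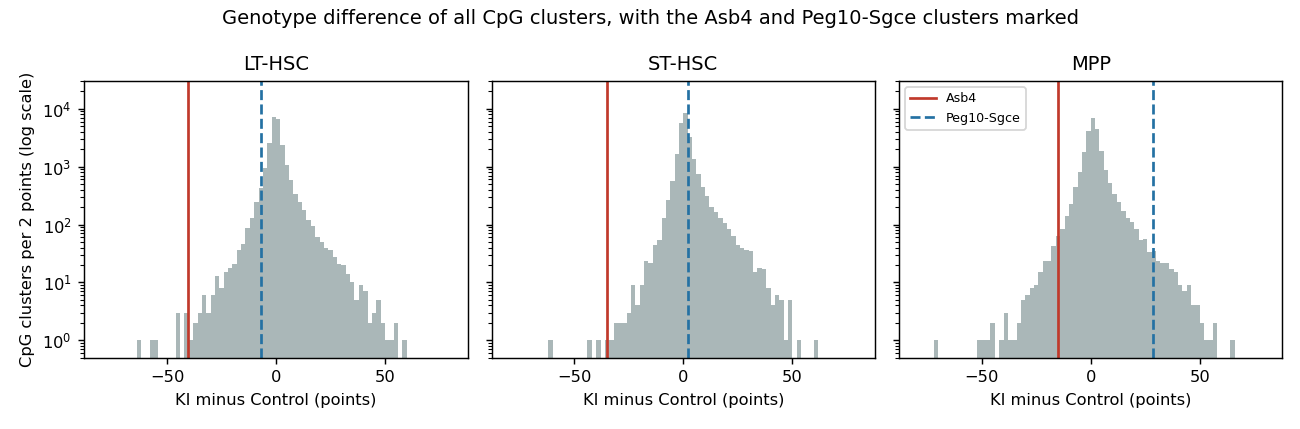
Number of CpG clusters (log scale) by KI minus Control difference in percentage points, in bins of 2 points, 1 panel per cell type, for all 23846 clusters. The red line marks Asb4 at -40.4, -34.9 and -14.9 points and the dashed blue line Peg10-Sgce at -6.93, 2.14 and 28.5 points in LT-HSC, ST-HSC and MPP.

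The other 6 member clusters were weakly methylated in every library and within 10 points of each other between genotypes. Ppp1r9a, which encodes neurabin, an actin-binding scaffold of protein phosphatase, had the most positions (52, chr6:4903050-4903892). It stood at 3.26, 3.34 and 5.69% in KI LT-HSC, ST-HSC and MPP, against 3.88, 2.78 and 1.77% in the matching Control libraries. Pon2, a paraoxonase (29 positions, chr6:5298190-5298396), stood at 2.45, 3.57 and 4.83% in KI, against 1.81, 2.43 and 1.42% in Control. Both were highest in KI MPP and lowest in Control MPP.

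Casd1 encodes the enzyme that O-acetylates sialic acids. Its first cluster (23 positions, chr6:4600769-4601001) stood at 2.15, 2.15 and 3.84% in KI LT-HSC, ST-HSC and MPP, against 1.51, 1.73 and 2.81% in the same cell types of Control mice. Its second (30 positions, chr6:4601340-4601515) stood at 0.556, 1.09 and 2.36% in KI, against 2.92, 2.06 and 1.40% in Control. The order of the genotypes in the second was lower in KI in LT-HSC and ST-HSC and higher in KI in MPP.

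Calcr, the calcitonin receptor gene, had a cluster at the promoter window shown above (8 positions, chr6:3763751-3763821). It stood at 4.45, 6.52 and 7.76% in KI LT-HSC, ST-HSC and MPP, against 3.48, 2.87 and 3.10% in the matching Control libraries. KI was higher in each cell type, by 0.973, 3.66 and 4.65 points. Its second cluster (6 positions, chr6:3764485-3764587) was the most methylated of these 6, at 9.40, 18.0 and 18.7% in KI, against 11.3, 14.7 and 13.7% in Control.

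Pon1, the serum paraoxonase gene, and its relative Pon3 had no cluster, only scattered positions. The 5 shared positions of Pon1 averaged 76.4, 74.5 and 78.0% in KI LT-HSC, ST-HSC and MPP, against 86.9, 73.2 and 74.3% in the same cell types of Control mice. Position 5171327 was the low one, at 22.7, 15.4 and 13.4% in KI, against 87.0, 11.9 and 0% in Control. The 0% of Control MPP rests on 51 reads and allows up to 5.88%. Control LT-HSC stood apart there, with 23 reads, and this position was called as lower in KI in LT-HSC. Position 5172606 was called in the other direction in LT-HSC, at 92.1% in KI and 65.1% in Control, a difference of 27.0 points. Pon3 had 2 positions, neither in all libraries, of which 1 read 75% in KI ST-HSC and the other 100% in KI MPP and in Control ST-HSC.

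Across the whole stretch the members divided by location. In the clusters, 786 of 984 values (79.9%) were at most 10% and none was at least 90%. At the 18 shared positions outside clusters 71 of 108 values (65.7%) were at least 90%, with a median of 97.4%. The Peg10-Sgce and Asb4 clusters were the only 2 of the 8 with any library mean above 20%.

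Single positions were compared between libraries with a two-sided Fisher exact test on reads, adjusted by Benjamini and Hochberg over all positions covered in both. A position was called where the adjusted p was under 0.01 and the levels were 25 points or more apart, and a call compares 2 libraries, not the genotypes. In LT-HSC 9 of 229 member positions were called (3.93%), beside 2.42% of all positions. Of these 1 was higher and 8 were lower in KI, beside 1.18% and 1.24% of all positions. In ST-HSC 2 of 251 were called (0.797%), beside 0.665% of all. Both were lower in KI, beside 0.113% of all, and both were in Asb4. In MPP 10 of 258 were called (3.88%), beside 4.01% of all, 7 higher and 3 lower, beside 2.58% and 1.43% of all. The 8 lower calls of LT-HSC were 4 in Asb4 and 1 each in Calcr, Casd1, Peg10 and Pon1. Since these contrasts were used in the choice of the genes, nothing is read from the shares.

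By clusters, 1 of 8 members was at least 10 points apart in LT-HSC, beside 5.69% of all clusters, and 1 of 8 in ST-HSC, beside 6.2%. Both were Asb4. In MPP 2 of 8 were, Asb4 and Peg10-Sgce, beside 7.65%. The median KI minus Control difference of the 8 clusters was -1.26, 0.845 and 3.67 points in LT-HSC, ST-HSC and MPP, beside 0, 0.694 and 1.18 points for all clusters. Over whole gene extents with their flanks, called at an adjusted p under 0.01 and 10 points, Asb4 was called in each cell type and Sgce in MPP. That is 1, 1 and 2 of 8 genes in LT-HSC, ST-HSC and MPP, beside 2.12, 2.69 and 3.43% of 16983 genes. These calls rest on the differences that chose the genes and on 1 library per group, so they support nothing further. Peg10 differed by 20.9 points in MPP over its extent, as a difference of means over positions, without being called. The Fisher test used summed reads, so those 20.9 points were not what it tested. Of the 610 reads of Control MPP, 170 lay at position 4756289 (100%) and 117 at position 4756163 (50.4%), both outside the cluster.

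Between cell types of 1 genotype the same rule of an adjusted p under 0.01 and 10 points called 1 of the 8 clusters. Peg10-Sgce was 28.5 points higher in MPP than in LT-HSC of KI mice (57.4 and 29.0%), beside 4.39% of all clusters called. In Control mice the MPP minus LT-HSC difference was -6.98 points (28.9 and 35.9%) and was not called, beside 7.44% of all clusters. The KI MPP library enters this comparison and the genotype comparison in MPP, so they are not separate evidence. ST-HSC against LT-HSC called 0 of 8 in KI, beside 3.58%, and 0 of 8 in Control, beside 3.9%. Asb4 was 5.62 points higher in MPP than in LT-HSC of KI mice (9.38 and 3.76%), and in Control mice the MPP minus LT-HSC difference was -19.9 points (24.3 and 44.2%). Weighted by reads, the Control difference of Asb4 was -10.6 points, which lies outside -19.9 ± 8.94 (counting error). Neither Asb4 difference was called, and the Fisher test behind a call used summed reads, not the means over positions.

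The second Calcr cluster was 8.58 points higher in ST-HSC than in LT-HSC of KI mice (18.0 and 9.40%). It was 9.30 points higher in MPP than in LT-HSC (18.7 and 9.40%). Both fell short of the 10 points asked for a call. The Control library differences of that cluster were 3.34 points for ST-HSC and 2.41 points for MPP. All 8 member clusters had the order LT-HSC below ST-HSC below MPP in KI, an order held by 32.2% of all clusters in KI. In Control 1 of the 8 had it, beside 18.3% of all clusters, and 3 had the opposite order, beside 21%. This order was looked at after the values were seen. In KI the step from LT-HSC to ST-HSC was 0.00185 ± 1.20 points in the first Casd1 cluster and 0.0752 ± 1.10 points in Ppp1r9a (counting error). Counted over reads, the first Casd1 cluster stood at 2.70% in KI LT-HSC and 2.37% in KI ST-HSC. The second Calcr cluster then stood at 17.6% in KI ST-HSC and 16.4% in KI MPP. The count of 8 therefore holds for the unweighted means only.

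Both strands were covered in all libraries at 30 member CpGs, 14 in Casd1, 9 in Pon2, 6 in Ppp1r9a and 1 in Calcr. At these the 2 strands could be compared. They were 25 points or more apart at 1, 0 and 1 CpG in LT-HSC, ST-HSC and MPP of KI mice, with the same counts in Control. Over all 78150 such CpGs the share was 2.61, 2.48 and 2.19% in KI LT-HSC, ST-HSC and MPP, against 4.51, 3 and 6.27% in the matching Control libraries. Control MPP thus had the most strand disagreement of the 6 libraries, and it is one of the pair behind the MPP differences of Peg10-Sgce and Asb4. Whether that bears on those differences was not tested. The gap of 76.9 points in Control MPP lay in Pon2, where position 5297577 on the forward strand read 76.9% on 13 reads and position 5297578 on the reverse strand 0% on 28, which allows up to 10.7%. Position 5297577 was called in MPP, with a KI minus Control difference of -55.5 points. Pon2 also had a call of 100 points in the other direction in MPP, at position 5299823, on 13 reads in KI and 12 in Control. That position stood at 100% in the 3 KI libraries, against 72% in Control LT-HSC and 0% in Control MPP, and was not covered in Control ST-HSC. The 0% allows up to 25%.

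The letters around a measured position went with its level. In the 300-base promoter windows of any gene, 79 shared member positions were found, 13 inside the letters CCGG and 66 outside. CCGG reads the same on both strands and is the site cut in reduced representation libraries, and 52.8% of all 32851 windows hold it. Inside CCGG the member positions averaged 12.2, 15.7 and 18.9% in KI LT-HSC, ST-HSC and MPP, against 12.4, 9.68 and 7.14% in the same cell types of Control mice. Outside CCGG they averaged 0.788, 1.12 and 2.34% in KI, against 0.557, 0.233 and 0.707% in Control. At 17544 positions inside CCGG in all promoters the means were 12.7, 15.3 and 16.2% in KI, against 13.7, 13.2 and 13.3% in Control. At 76429 positions outside they were 1.87, 2.14 and 2.51% in KI, against 1.90, 1.84 and 1.80% in Control. In every library the level was higher inside CCGG than outside it, among members and among all promoters. This split was made after the data were seen. The positions of Peg10-Sgce and Asb4 lie in none of these windows.

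**Figure D5:**
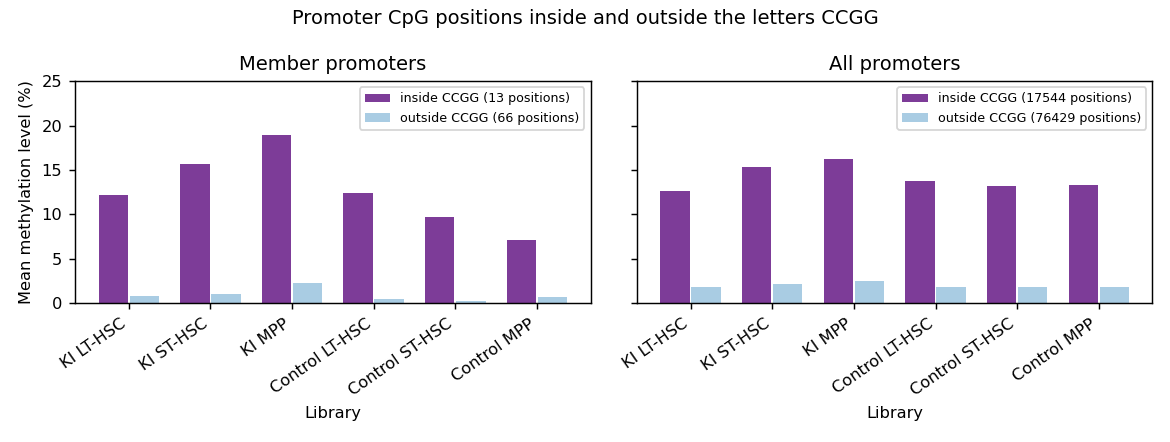
Mean methylation level (%) of promoter positions inside (purple) and outside (light blue) the letters CCGG, by library, for the members (left; 13 and 66 positions) and for all promoters (right; 17544 and 76429 positions). Bars are means over positions of 1 library each, without error bars, and the bar inside CCGG is the taller in each of the 6 libraries.

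Genes whose CpG clusters had a pattern most like these were sought by the root mean square difference of the 6 library levels, over 12504 clusters. Closest to Asb4 was the cluster of Slc22a29 and Gm41804 at 9.03 points, followed by that of Gm13822 and Oasl1 at 13.5 points and by Peg12 at 13.6 points. The Slc22a29 cluster stood at 10.7, 9.94 and 12.9% in KI LT-HSC, ST-HSC and MPP, against 24.0, 40.8 and 26.9% in the matching Control libraries. Closest to Peg10-Sgce were 2310016G11Rik at 6.24 points, Oprd1 at 6.58 points and Gm9257 at 7.23 points. The 2310016G11Rik cluster stood at 34.5, 33.3 and 50.5% in KI, against 26.5, 27.2 and 36.4% in Control. These are likenesses of 6 values only.

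Among 13 genes next to the members on chromosome 6, 7 had a cluster, at 0 to 12.3%, and none was 10 points apart between genotypes in any cell type. Of 22 imprinted genes elsewhere in the genome, 17 had a cluster, in 15 distinct clusters. Their median levels were 47.1, 42.6 and 43.8% in KI LT-HSC, ST-HSC and MPP, against 35.6, 37.8 and 51.5% in the same cell types of Control mice. With a cutoff of 10 points, 5 of the 15 had KI above Control in LT-HSC and 2 had KI below, beside 3.98% and 1.71% of all clusters. In ST-HSC 2 were higher and 1 lower, beside 5.45% and 0.751% of all clusters. In MPP 1 was higher and 3 lower, beside 5.83% and 1.82%. None was 10 points apart in the same direction in all 3 cell types. The clusters with the largest MPP differences were picked after their values were seen. From LT-HSC to MPP, KI minus Control was 39.5, 24.6 and -20.6 points at Nap1l5, and -19.0, 19.1 and 23.8 points at Zrsr1. At Impact it was -27.2, 2.23 and -25.7 points. The next largest MPP difference was -10.4 points, at Plagl1. Of the 15, 5 were at 20 to 80% in all 6 libraries, as Peg10-Sgce was.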

How the data were processed

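Each deposited file lists cytosine positions with their coverage, a read count, and with the percent of reads showing C and T, per the file headers. The submitters' processing notes name Bismark 0.10.0, SAMtools 1.0, methylKit 0.9.1 and mm10. Settings, duplicate removal and the conversion rate of the bisulfite step are not given. Gels were cut at 150 to 400 bp, per the labels' protocols. No file held a position under 10 reads. Multiplying coverage by percent C gave whole reads (to 0.01% of the coverage) for 100% of the positions. Strands were kept apart.

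The members and gene lists were chosen with earlier results of these data known. Levels were unweighted means over shared positions. Intervals were computed on reads pooled over positions, while the differences they stand beside are between means over positions. They cover counting error only, since PCR reads without molecular identifiers are not independent molecules. A read spanning several positions enters at each, so the intervals are too narrow even for that. The Fisher tests on summed reads count reads in the same way. Fisher exact tests with Benjamini-Hochberg adjustment were fitted over all positions, clusters or genes and tested on simulated data. Single positions named are the 3 of largest mean difference in the Peg10-Sgce and Asb4 clusters; others are said to be chosen after their values were seen, as are all called positions. Alternatives were a coverage of at least 20, reads thinned to 10, windows of 1 kb, no flank, weighting by reads, summed strands, single strands, and positions of both or all libraries. Python 3.11.15, NumPy 2.4.6, pandas 2.3.3, SciPy 1.17.1, numba 0.67.0 and matplotlib 3.10.9 were used. No exon annotation was used.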

Additional observations from a re-analysis of the deposited data

Results flagged for a closer look

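At the Peg10-Sgce cluster, KI minus Control was 28.5 points in MPP and -6.93 points in LT-HSC, opposite directions in the 2 cell types. In LT-HSC the last 2 of the 11 positions differed by -31.7 and -25.6 points and the other 9 by -10.4 to 1.85 points, and with reads thinned to 10 per position the LT-HSC difference was 0. The MPP difference exceeded the LT-HSC difference by 35.4 points. With 1 library per genotype and cell type, that difference was not tested, and the members were chosen with it known.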

How the results depend on the processing

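With reads thinned to 10 per position, the Asb4 cluster differed by -52 points in LT-HSC (-40.4 as reported) and -26 points in MPP (-14.9), and Peg10-Sgce by 0 points in LT-HSC (-6.93). The MPP minus LT-HSC difference of Peg10-Sgce in Control was then 0.909 points (-6.98). Weighting by reads put Asb4 in MPP at -24.9 points, and its MPP minus LT-HSC difference in Control at -10.6 points (-19.9). By strand, forward alone and reverse alone gave Asb4 -59.2 and -18.7 points in ST-HSC and -27.2 and -6.72 points in MPP. They gave Peg10-Sgce -4.55 and 7.72 points in ST-HSC and 15.1 and 39.7 points in MPP. The strand split was added after seeing the data. On thinned reads the member positions called were 0 for LT-HSC, 0 for ST-HSC and 1 for MPP (9, 2 and 10 as reported), where few reads limit any call. Gene extents called numbered 2 in LT-HSC when weighted by reads (1 as reported). In MPP they numbered 1 without the flank and 1 on thinned reads (2 as reported); without its flank the Sgce extent ends before the cluster. A coverage of at least 20 and positions of both or all libraries left the differences within counting error of the reported ones and the counts within 1.5 times. Under them the position calls were 8 in LT-HSC, and in MPP 8 at a coverage of at least 20 and 7 over all libraries. Asb4 in ST-HSC was -31.3 points over positions of both. Windows of 1 kb and summed strands returned the reported values at Asb4 and Peg10-Sgce. The window held the same positions there, and no CpG was covered on both strands in all libraries, so these settings were no test. No paired analysis was possible because the labels number no replicates; the genotypes could be matched by cell type alone, as in the mean differences over the 3 cell types. One library per group limits every comparison, and the Control MPP library has the fewest reads at both clusters.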
